A study of Oryzias latipes with 84 samples.

Results

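The pituitary of a fish matures with the rest of the animal, and its hormone output shifts as the fish grows, enters puberty and starts to spawn. The genes described here are the 100 genes of the Japanese medaka (Oryzias latipes) whose level in the male pituitary rose most, step by step, with age. They were selected on the male values themselves. Within each of 4 male ages the median of log2(CPM + 1) was taken over the fish, where CPM are the counts of a gene per 1000000 counts of its library. A gene was kept if this median rose at each of the 3 steps between ages and reached at least 5 CPM at the last one, and the 100 genes with the largest difference between the last and the first age became the members. Of 24350 genes that could be chosen, 1408 rose at each step, 818 of these also reached the floor, and 100 are members. Another 13 genes, the hormone genes among them, were left out by the rule.

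The series holds 84 bulk RNA-seq libraries, each made from the pituitary of 1 fish, 16 of them males and 68 females, all of the d-rR lhb:GFP strain, in which the promoter of lhb, the gene of the luteinizing hormone β-subunit, drives a green fluorescent protein. All fish carry this transgene and none was treated. The males were 38, 57, 70 and 134 days post fertilization (dpf), 4 at each age. The females spanned 32 to 375 dpf and were grouped as 32 to 35 (n = 4), 37 to 39 (n = 4), 44 to 49 (n = 8), 53 to 59 (n = 9), 64 to 74 (n = 10), 79 to 92 (n = 10), 96 to 111 (n = 11), 131 to 179 (n = 6), 249 to 277 (n = 3) and 375 dpf (n = 3). Fish are named as in the labels, by medaka and a number.

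Pituitary cell types are usually told apart by the hormone they make. In teleosts, gonadotropes make the gonadotropins, somatotropes growth hormone, lactotropes prolactin, and melanotropes of the pars intermedia cut the product of pomca into α-Msh, a pigmentation hormone. Corticotropes make Acth from the product of the same gene, so that pomca marks both cell types. A whole gland mixes these cells with blood, immune and supporting cells, so that a lower level in a bulk library can be fewer cells of a type or less RNA per cell, and these cannot be told apart here.

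The 8 hormone genes together took 1.48% to 38.1% of the counts of a library. A library share under 15% was found in 3 males (medaka125 and medaka126 of 38 dpf, medaka135 of 70 dpf) and 4 females, the lowest in female medaka7 of 79 dpf. Male medaka135 also had the highest level of the immune gene CD74 in its age group, at 6436 CPM, and male medaka125 the highest level of the red blood cell gene gb, at 23105 CPM. After every library was thinned to 2424546 counts, 20729 to 22337 genes were detected in males of 134 dpf, against 19004 to 19821 in males of 38 dpf. In the females the numbers were 21644 to 22727 at 131 to 179 dpf and 19691 to 22563 at 37 to 39 dpf. Between the end ages the number was thus higher in the older males without overlap, whereas the female ranges overlapped. The median of this number did not follow the members step by step in males, at 19139 at 38 dpf, 20574 at 57 dpf, 19057 at 70 dpf and 21999 at 134 dpf. Within the males of 57 dpf and within those of 134 dpf, fish with more genes detected had a higher median over the members. It went from 1.89 to 2.94 at 57 dpf and from 3.08 to 4.01 at 134 dpf on the log2(CPM + 1) scale. The value of 4.01 was that of male medaka140, with an RNA integrity number of 7.1 and 4832598 counts. In the other males of 134 dpf that number was 9.6 to 9.8 and the counts 6833588 to 7506424. The part of RNA quality in the male levels was not tested. At 38 and 70 dpf the orders differed, although the fish with most genes detected also had the highest median at both ages. These were medaka127 of 38 dpf (19821 genes, 2.21) and medaka135 of 70 dpf (20660 genes, 3.26). What part the number of genes detected had in the male rise was not tested. Female fits with this number in the model are given beside the results below.

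In the males, the median over the members of the age medians was 1.71 at 38 dpf, 2.35 at 57 dpf, 2.701 at 70 dpf and 3.70 at 134 dpf on the log2(CPM + 1) scale. In CPM, the typical member had a median of 12.0 at 134 dpf and of 2.28 at 38 dpf. Most members were therefore expressed at a low level: 42 of the 100 stayed under 10 CPM at 134 dpf, while 11 reached 50 CPM and 4 reached 100 CPM. The difference between 134 and 38 dpf ranged from 1.497 to 3.17, with a median of 1.80, and exceeded 2 in 39 members. Over the 20641 genes with a mean of at least 1 CPM the same difference had a median of 0.19, with 60.8% of genes above 0. The typical gene was thus slightly higher at 134 dpf on this scale, and the reason was not tested. The male values chose the members and carry no test.

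The climb was uneven. The largest step lay between 70 and 134 dpf in 61 members, between 38 and 57 dpf in 30 and between 57 and 70 dpf in 9. The median step was 0.62 for 38 to 57 dpf, 0.21 for 57 to 70 dpf and 0.94 for 70 to 134 dpf. No member had separate ranges at all 3 steps. All 4 males of 134 dpf were above all 4 males of 38 dpf in 57 members, and in the other 43 the ranges overlapped. Among the 14423 genes with a median of at least 5 CPM at 134 dpf, the ranges were separate in this direction in 9.03%, but the rule used this contrast and the member count follows from it. The last member in rank had medians of 2.71 at 38 dpf, 3.46 at 57 dpf, 3.61 at 70 dpf and 4.21 at 134 dpf, a difference of 1.4967, and the first gene left out had a difference of 1.4833.

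The choice of members depended on single fish. When 1 male was left out at a time, 39 to 79 of the 100 members were chosen again, the fewest (39) without either of the males medaka133 and medaka134 of 70 dpf, and 48 to 98 still rose at each step and reached the floor. Without the 3 males with a low hormone share (medaka125, medaka126 and medaka135), 49 were chosen again. With the mean in place of the median 45 were chosen again, and with TMM-scaled CPM, a scaling that balances the bulk of genes between libraries, 72. Statements on the whole list below hold for the list as chosen from all 16 males.

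**Figure D1:**
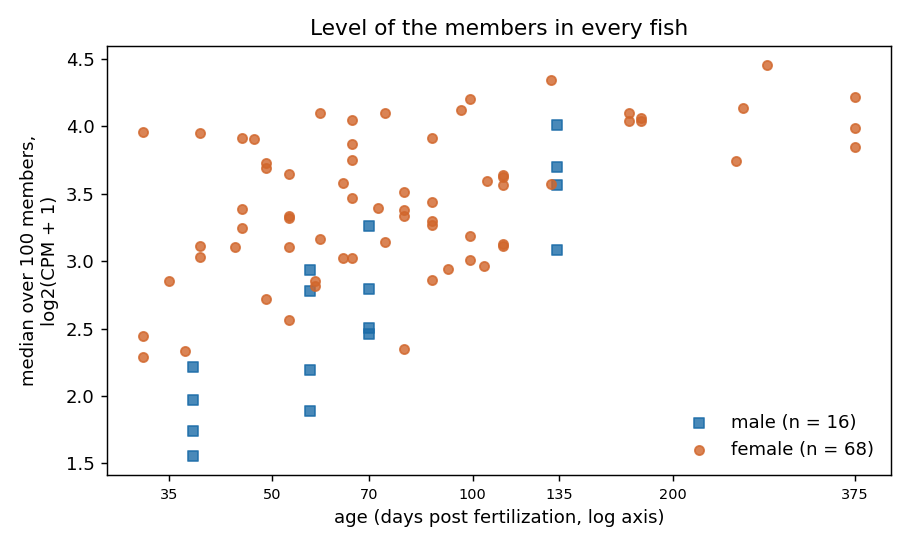
Median over the 100 members of log2(CPM + 1) in every fish (vertical axis) against age in dpf on a log axis; squares are the 16 males, circles the 68 females. Male values lie between 1.56 and 2.21 at 38 dpf and between 3.08 and 4.01 at 134 dpf, and females of the same early ages lie mostly above the males.

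Females of the early ages lay mostly above males of the early ages in the plot of every fish, but the members were chosen for low values in males of 38 dpf, so that no difference between the sexes can be read from it. In the females, the median over the members of the group medians was 2.68 at 32 to 35 dpf, 3.06 at 37 to 39 dpf, 3.50 at 44 to 49 dpf, 3.15 at 53 to 59 dpf, 3.55 at 64 to 74 dpf, 3.26 at 79 to 92 dpf, 3.55 at 96 to 111 dpf, 4.06 at 131 to 179 dpf, 3.98 at 249 to 277 dpf and 4.00 at 375 dpf. The female series thus went up and down between neighbouring ages, unlike the males, in which a rise at each step was required. Only 1 member had a median that rose from each female age group to the next. The highest female median lay at 131 dpf or later in 84 members, and the lowest at 32 to 39 dpf in 84. The same counts were not made over all genes.

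The females took no part in the choice, so that a trend with age could be tested in them. Over all 68 females, edgeR's quasi-likelihood test of the slope on log2 age called 46 of the 100 members higher and 2 lower with age at an adjusted p under 0.05. Of the 21161 genes tested, 14.5% were called higher and 16.0% lower. The slope was above 0 in 88 members, with a median of 0.22 log2 units for each unit of log2 age (a 2-fold change of age), against a median of 0.0063 over all genes tested. Among the 46 called members the slope ran from 0.16 to 1.80. All 100 members passed the filter on low counts in this and in every other fit.

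Several of these calls were lost with other fish or covariates. With the genes detected per library added to the model, 30 members were called higher and 1 lower, where 9.63% of all genes were called higher. With the RNA integrity number as a covariate, which is given for 57 of the females, the counts were 23 and 0 beside 5.16% of all genes higher, and with only the females of 37 to 179 dpf they were 19 and 0 beside 4.13%. Calls over all genes were thus fewer in these fits as well. Without the females with under 12% hormone counts, an alternative chosen after seeing the data, they were 44 and 2 beside 13.5%.

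The female ages nearest to the male end points gave a smaller count. Between 6 females of 131 to 179 dpf and 4 of 37 to 39 dpf, edgeR called 12 members higher and 2 lower in the older fish, against 0.453% and 1.44% of the 19866 genes tested. The log2 fold change had a median of 0.56 over the members and of 0.0079 over all genes, was above 0 in 83 members, and lay between 1.29 and 4.09 in the 12 called higher. Of these 12, 11 were also among the 46 with a called slope on age, a comparison that contains the same fish. Leaving out 1 female at a time gave 5 to 24 members higher and 1 or 2 lower, 24 without the younger female medaka103, and 5 to 7 without any of medaka104, medaka106, medaka112, medaka114, medaka118, medaka120 and medaka121. Calls over all genes in these refits are not given here, so the counts show only that the result depended on single fish. DESeq2 called 20 members higher and 3 lower, with 488 of all genes higher. With the genes detected in the model, edgeR called 5 members higher and 2 lower, with 34 of all genes higher.

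**Figure D2:**
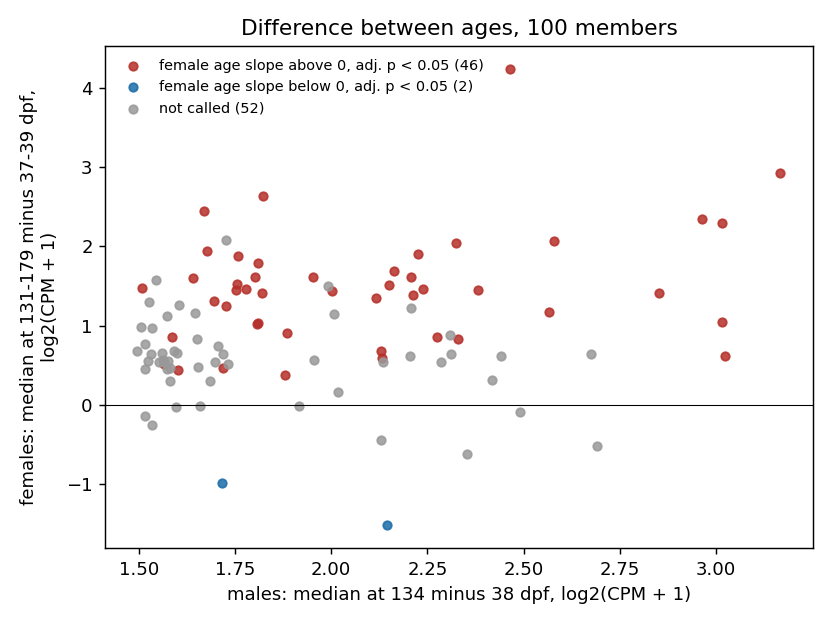
Difference of group medians on the log2(CPM + 1) scale in females (131 to 179 minus 37 to 39 dpf, vertical axis) against that in males (134 minus 38 dpf, horizontal axis), 1 point per member; red points have a called positive slope on age in the females (46), blue a called negative slope (2), grey neither (52). In 89 members the female difference is above 0, while every male difference is above 1.49 because the members were chosen on it.

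On the plain log2(CPM + 1) scale the difference between these female groups ran from -1.52 to 4.25 with a median of 0.84, and was above 0 in 89 members and below 0 in 11. Over the 20641 genes with a mean of at least 1 CPM the median of this difference was 0.30, with 75.7% above 0. Over the 818 genes that rose at each male step and reached the floor, the members included, it was 0.39, with 676 above 0.

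Females older than the oldest males were compared with those of 131 to 179 dpf, a comparison in which hardly any gene was called. Between 6 females of 249 to 375 dpf and 6 of 131 to 179 dpf, edgeR called 0 members higher and 0 lower, against 0.00505% and 0% of the 19808 genes tested. An unadjusted p under 0.05 (edgeR) was found for 12 members, all of them higher, and for 1197 of the 19808 genes in either direction. DESeq2 also called 0 members. The log2 fold change over the members had a median of 0.10 and ran from -1.11 to 0.77.

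Age and body length rise together in these fish, and 2 fits held both. In the first the SE of the age slope was larger than with age alone, for example 0.30 against 0.17 for ENSORLG00000016288. In a joint fit over the 68 females with log2 age and length in mm, edgeR called 1 member higher and 0 lower with age at a given length, where 1.62% and 0.181% of the 21532 genes were called. DESeq2 also called 1 higher and 0 lower. At an unadjusted p under 0.05 edgeR found 11 members higher and 2 lower, where 3041 of the 21532 genes were found in either direction. With length at a given age edgeR called 9 members higher and 2 lower, against 0.650% and 4.72% of all genes. In a fit with every labelled age as its own level, so that only fish of the same age were set against each other, 11 members rose with length and 0 fell, against 2.99% and 3.98% of 22691 genes (edgeR). At an unadjusted p under 0.05 (edgeR) there were 24 higher and 1 lower, where 4542 of the 22691 genes were found in either direction. DESeq2 called 14 and 0 members. Of these 11, 10 also had a called positive slope on age, and 8 were among the 9 called with length in the joint fit. Without female medaka7, a fish of 10.5 mm at 79 dpf, 7 of the members were called, and without all females under 12% hormone counts 5 were. With the genes detected in the model 15 were. The counts from DESeq2, without medaka7 and with the genes detected are not set against calls over all genes here. They therefore say nothing on the members in particular. Without the females under 12% hormone counts, calls over all genes were also far fewer than the 679 called higher in the main fit. That count is given in the last section.

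The identifiers in the files were paired with gene names for only 2 of the members, crhbp and spaca4l, from the study itself. The rest are known here by identifier alone, and 4 of them are described because the results turn on them. ENSORLG00000002651 had the largest difference of all members in males and also the smallest p among members for age in females. ENSORLG00000016288 was chosen after its values were seen, for its relation to length. ENSORLG00000005962 was the unnamed member called lower with age in females, and ENSORLG00000026115 was chosen after its values were seen, because it varied with crhbp.

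**Figure D3:**
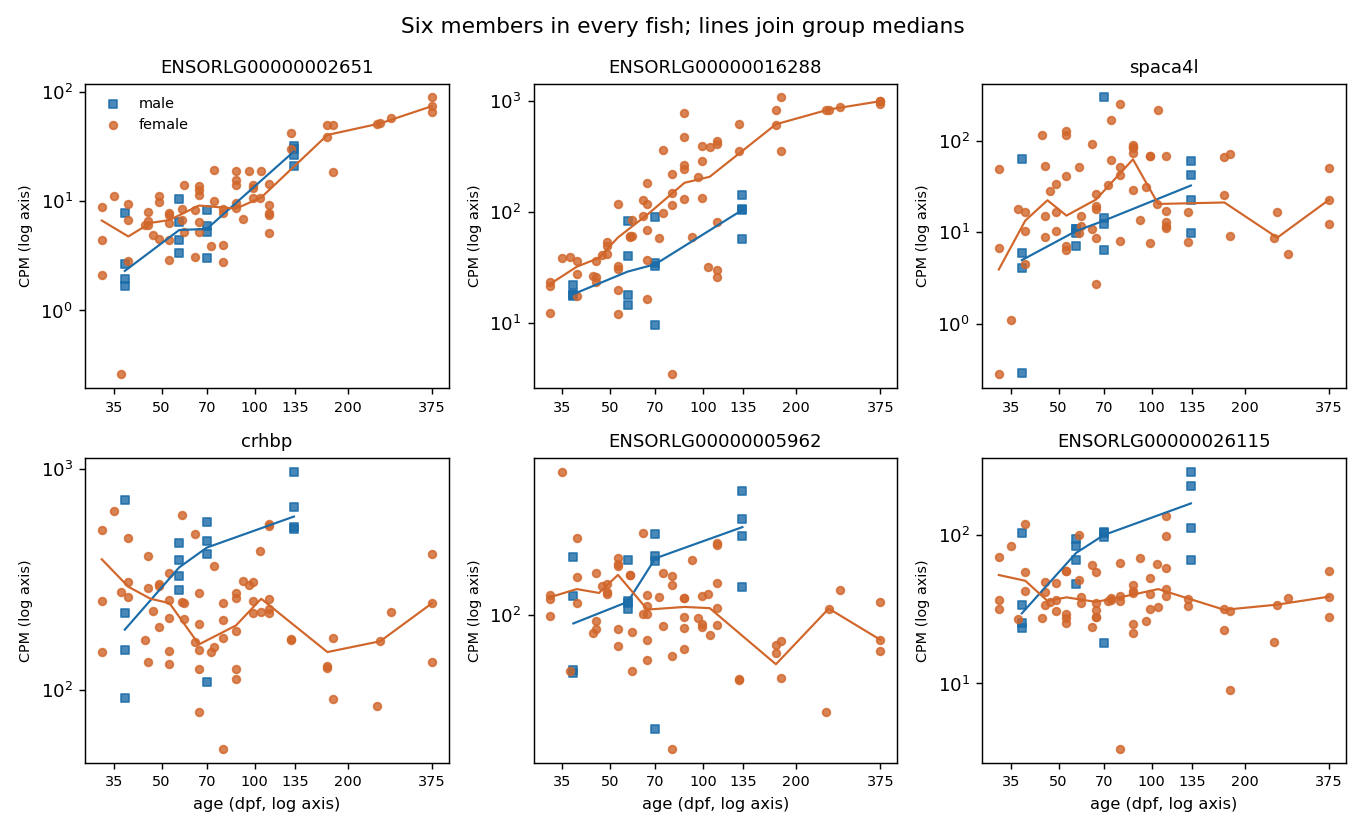
CPM (log axis) of 6 members in every fish against age in dpf (log axis); squares are males, circles females, and lines join the medians of the age groups. In the upper row ENSORLG00000002651 and ENSORLG00000016288 are higher at later ages in both sexes, and in the lower row crhbp, ENSORLG00000005962 and ENSORLG00000026115 are higher in males of 134 dpf than in all females of 131 to 179 dpf.

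ENSORLG00000002651 had 26.8, 30.3, 20.9 and 31.9 CPM in the males of 134 dpf, against 2.64, 7.77, 1.67 and 1.96 CPM in the males of 38 dpf. Between these, the males of 57 dpf had 3.37 to 10.4 CPM and those of 70 dpf 2.99 to 8.30 CPM. The 134 dpf males were above all 12 younger males, whose 3 age groups overlapped. The step of the median was 0.95 from 38 to 57 dpf, 0.05 from 57 to 70 dpf and 2.17 from 70 to 134 dpf on the log2(CPM + 1) scale. In females the 6 fish of 131 to 179 dpf had 42.3, 30.1, 50.2, 18.6, 38.6 and 50.03 CPM, and the 4 fish of 37 to 39 dpf 0.261, 9.40, 6.69 and 2.83 CPM. The older females were all above the younger ones, and the 3 females of 375 dpf were higher still, at 65.9 to 89.1 CPM. The slope on log2 age was 1.12 ± 0.08 (SE, n = 68; edgeR adjusted p = 6.93e-18), and remained called under each of 10 alternative settings (adjusted p 1.44e-29 to 1.36e-09). None of these settings held length. In the joint fit with length the age slope was 0.49 ± 0.19 (SE; edgeR adjusted p = 0.195), not called. The length slope in that fit was 0.12 ± 0.035 per mm (adjusted p = 0.0187). With every labelled age as its own level the length slope was 0.053 ± 0.036 (adjusted p = 0.461), not called. The change between the 131 to 179 and the 37 to 39 dpf females was 2.83 ± 0.62 on the log2 scale (SE; edgeR adjusted p = 0.0461). This call was lost when any of 7 of the 10 females was left out, without the filter on low counts and with the genes detected in the model, with adjusted p up to 0.126.

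ENSORLG00000016288 had the largest fold change of all members between these female groups. The females of 131 to 179 dpf had 624, 352, 1084, 355, 617 and 832 CPM, against 38.9, 27.7, 17.6 and 36.4 CPM in those of 37 to 39 dpf. The groups were far apart, with a log2 fold change of 4.09 ± 0.42 (SE; edgeR adjusted p = 0.000399), called under all 17 alternatives. In females of 249 to 277 and of 375 dpf the level lay between 832 and 1011 CPM. In males of 134 dpf it was much lower than in females of 131 to 179 dpf, of which only those of 131 dpf were close in age. The other females of that group were 172 or 179 dpf. The males of 134 dpf had 142, 57.4, 105.8 and 103.3 CPM, and those of 38 dpf 18.0, 18.3, 21.7 and 17.3 CPM. All 4 males of 134 dpf were thus above all 4 of 38 dpf, and below all 6 females of 131 to 179 dpf.

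The level of ENSORLG00000016288 went with body length among fish of the same age. The 5 females of 87 dpf, 16.0, 16.5, 17.5, 18.0 and 18.5 mm long, had 131, 244, 263, 473 and 788 CPM in this order. At 111 dpf, females of 10.5, 13.0, 15.0, 18.0 and 19.0 mm had 29.8, 25.7, 80.5, 416 and 442 CPM. The 2 smallest females of 111 dpf were within the range of the females of 37 to 39 dpf, which were 11.0 to 12.5 mm long. Over all 68 females the slope was 0.40 ± 0.06 log2 units per mm at a fixed age (SE; edgeR adjusted p = 8.38e-05), 0.45 ± 0.07 in the females of 64 to 111 dpf alone (adjusted p = 0.0015), and called under all 9 alternatives. In the joint fit the slope on length was 0.36 ± 0.06 (adjusted p = 1.33e-05) and that on age at a given length was 0.04 ± 0.30 (adjusted p = 0.974). At 66 dpf the order was less clean, with 68.5 CPM at 19.5 mm and 118.1 CPM at 15.5 mm.

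**Figure D4:**
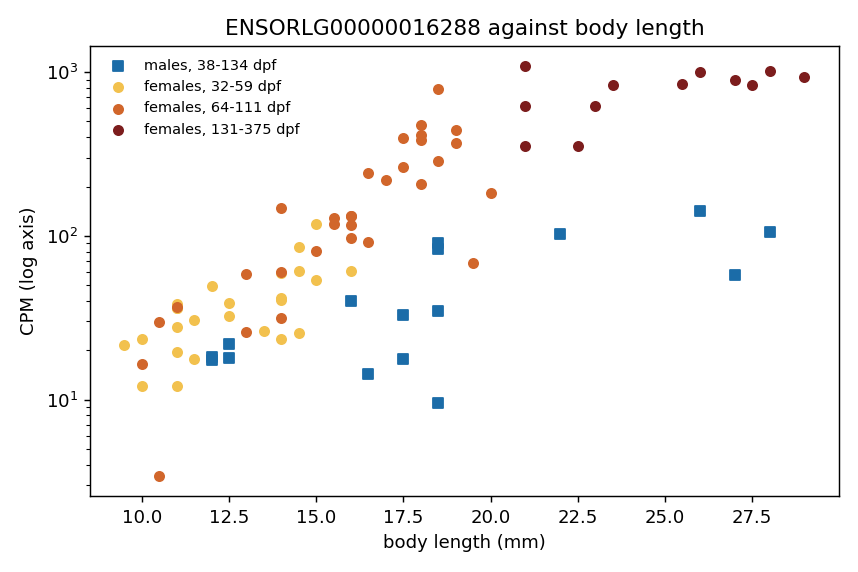
CPM of ENSORLG00000016288 (log axis) against body length in mm; circles are females coloured by age (32 to 59, 64 to 111 and 131 to 375 dpf), squares the 16 males. Females of 64 to 111 dpf span 3.42 to 788 CPM over 10.0 to 20.0 mm, and males of 22.0 to 28.0 mm lie at 57.4 to 142 CPM, below the females of that length.

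The corticotropin-releasing hormone binding protein gene crhbp, whose product binds the hypothalamic hormone that drives pomca cells and so limits its action, was higher in the older males and lower in the females of 131 to 179 dpf than in the youngest fish compared. It is also one of the genes that the study used to describe melanotropes. The males of 134 dpf had 972, 674, 539 and 549 CPM of crhbp, against 91.8, 224, 152 and 727 CPM in the males of 38 dpf. These ranges overlapped through a single fish, male medaka128, and at 70 dpf male medaka135 was low, at 108.8 CPM, against 413 to 577 CPM in the other males of that age. The low values at 38 dpf include medaka125 and medaka126 and the low value at 70 dpf is medaka135, the 3 males with under 15% hormone counts. Without them the males of 38 dpf had 152 and 727 CPM of crhbp, and the part of these libraries in the male rise was not tested. In females the direction was the other one, and this difference between the sexes was not tested, since the male values chose the gene. The 6 fish of 131 to 179 dpf had 170, 169, 173, 90.8, 128.7 and 125.4 CPM of crhbp, and the 4 fish of 37 to 39 dpf 279, 309, 264 and 487 CPM. Every older female was below every younger one, a log2 fold change of -1.54 ± 0.26 (SE; edgeR adjusted p = 0.00639), called under all 17 alternatives with adjusted p up to 0.0315. As above, these hold the fit without female medaka119 under both of its settings. The slope of crhbp over all 68 females was -0.27 ± 0.11 per unit of log2 age (SE; edgeR adjusted p = 0.0464). That call was lost under 5 of 10 alternatives, with adjusted p up to 0.436. In the joint fit with length the age slope was 0.19 ± 0.21 (SE; edgeR adjusted p = 0.731), not called. At 96 to 111 dpf crhbp was at 224 to 566 CPM. At 375 dpf it was at 134.6 to 412.5 CPM, overlapping the females of 37 to 39 dpf, and the fold change of the 249 to 375 against the 131 to 179 dpf females was 0.51 ± 0.30 on the log2 scale (SE; edgeR adjusted p = 0.811).

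ENSORLG00000005962 and ENSORLG00000026115 were also higher in older males and, by their medians, lower in the females of 131 to 179 dpf, but their calls differed. In both, medaka125 and medaka126 had the lowest values of the 38 dpf males and medaka135 that of the 70 dpf males. ENSORLG00000005962 had 584, 391, 306 and 148 CPM in males of 134 dpf and 45.8, 43.9, 131 and 226 CPM in males of 38 dpf, overlapping through male medaka128. In females it had 40.2, 39.3, 68.3, 40.7, 58.0 and 64.7 CPM at 131 to 179 dpf, against 44.8, 170.1, 117.995 and 296.8 CPM at 37 to 39 dpf. Only female medaka14 of the younger group reached down into the older range. The log2 fold change was -1.91 ± 0.39 (SE; edgeR adjusted p = 0.03), but the call was lost when any of 7 of the 10 females was left out, with adjusted p up to 0.0771. Its slope on log2 age was -0.47 ± 0.13 (SE, n = 68; edgeR adjusted p = 0.00333), lost with the RNA integrity number in the model (adjusted p = 0.167) and in the 37 to 179 dpf females alone (adjusted p = 0.187). In the joint fit with length its age slope was -0.14 ± 0.24 (SE; edgeR adjusted p = 0.857), not called. The length slope in that fit was -0.072 ± 0.044 per mm (edgeR adjusted p = 0.415), also not called.

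ENSORLG00000026115 had 262, 213, 111 and 67.3 CPM in males of 134 dpf and 23.7, 25.6, 33.6 and 102.5 CPM in males of 38 dpf, with male medaka128 again the highest of its age. In females it had 9.08 to 36.9 CPM at 131 to 179 dpf and 27.3 to 118.1 CPM at 37 to 39 dpf, a log2 fold change of -1.46 ± 0.45 that was not called by edgeR (adjusted p = 0.128) and was by DESeq2 (adjusted p = 0.0191). Its slope on log2 age, -0.21 ± 0.11, was not called (adjusted p = 0.132). In the joint fit its slope on body length was -0.12 ± 0.04 per mm at a given age (SE; edgeR adjusted p = 0.0352). With every labelled age as its own level the length slope was -0.02 ± 0.05 (SE; edgeR adjusted p = 0.891), not called.

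Over all members, the 4 males of 134 dpf were above the 6 females of 131 to 179 dpf without overlap in 3, against 0.562% of the 14423 genes with at least 5 CPM at 134 dpf in males, and these 3 were crhbp, ENSORLG00000005962 and ENSORLG00000026115. The males were below these females without overlap in 6 members, against 4.95% of the same genes, and in the other 91 the sexes overlapped. The male values at 134 dpf took part in the choice, so these counts are a description.

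Of the other melanotrope genes, pomca and oacyl were also lower in females of 131 to 179 dpf than of 37 to 39 dpf, and pcsk2 and pax7 were not called. Corticotropes express pomca too, so its level is not that of melanotropes alone. The list of markers holds pomca, oacyl, pcsk2, a convertase that cuts prohormones, pax7, a transcription factor of melanotropes, and crhbp itself, the only one of the 5 that is a member. The lowest value of any of them was 10.4 CPM, for pax7. In males pomca, which the rule left out of the choice, had a median of 34813 CPM at 38 dpf, 82980 at 57 dpf, 106142 at 70 dpf and 138545 at 134 dpf, and in male medaka128 it was at 114551 CPM. The sum of oacyl, pcsk2 and pax7 was 1966 to 4248 CPM in males of 134 dpf and 763 to 3322 CPM in males of 38 dpf, which overlap. For pax7, the smallest part of this sum, the male medians were 34.5 CPM at 38 dpf, 30.5 at 57 dpf, 29.1 at 70 dpf and 32.4 at 134 dpf, with ranges that overlap between the end ages. In females the sum of oacyl, pcsk2 and pax7 was 852 to 1671 CPM at 131 to 179 dpf and 1600 to 3239 CPM at 37 to 39 dpf. Between these female groups edgeR gave a log2 fold change of -1.56 ± 0.33 for pomca (adjusted p = 0.0225) and -1.74 ± 0.24 for oacyl (adjusted p = 0.00219), both called, and of -0.93 ± 0.25 for pcsk2 (adjusted p = 0.0678) and -0.58 ± 0.24 for pax7 (adjusted p = 0.219), not called. The slope on log2 age over the 68 females was called below 0 for all 4, from -0.49 for oacyl to -0.24 for pcsk2. Over the 68 females, Spearman's rho of crhbp was 0.80 with oacyl, 0.69 with pomca, 0.61 with pcsk2 and 0.25 with pax7 (Pearson's r 0.83, 0.77, 0.67 and 0.21). These genes come from the same libraries and share depth and tissue make-up, and the part of melanotrope content in the crhbp result was not tested.

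The gene spaca4l, named after a surface protein of mammalian sperm, was the least steady of the named members. It had 42.1, 9.92, 60.6 and 22.8 CPM in males of 134 dpf, against 63.2, 0.288, 4.06 and 5.88 CPM in males of 38 dpf. The highest of all 84 fish was male medaka135 of 70 dpf, at 297 CPM, where the other 3 males of that age had 6.42 to 14.3 CPM, and the highest female was fish medaka7, at 254 CPM. The high value in males of 38 dpf was male medaka125. These 3 libraries were also among those with a low hormone share and had 6436, 2203 and 1137 CPM of CD74. The other 4 libraries with under 15% hormone counts had 0.288 to 9.08 CPM of spaca4l and 243 to 381 CPM of CD74. Outside these libraries CD74 and spaca4l were not always high in the same fish. Female medaka114 had 1550 CPM of CD74 and 16.6 CPM of spaca4l, medaka118 had 1548 and 72.5 CPM, and medaka56 had 380 and 168 CPM. The part of other cells in the level of spaca4l was not tested. In females spaca4l showed no called change with age (slope -0.04 ± 0.28, edgeR adjusted p = 0.918) or between 131 to 179 and 37 to 39 dpf (1.08 ± 0.72, adjusted p = 0.481).

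The members did not vary as one group. Over the 4950 pairs of members, Spearman's rho of log2(CPM + 1) across the 68 females had a median of 0.39 and ran from -0.44 to 0.97, below 0 in 396 pairs. Pairs above 0.8 linked 43 members into 4 sets, of 32, 6, 3 and 2 members, and left 57 unlinked. The sets were made from the values of the same 68 females that supply the fits. Linked members vary together in these fish and can share calls for that reason. The counts of calls within each set below are therefore a description, not separate results for each gene. The shares of all genes that edgeR called higher in these fits are given above.

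The set of 32 held genes of low level, with medians over all 84 fish of 3.43 to 18.9 CPM. It followed the number of genes detected in a library: for its members rho with that number was 0.74 to 0.91 over the 68 females (Pearson's r 0.64 to 0.89), whereas over the other 68 members it ran from -0.18 to 0.80 with a median of 0.52. In this set 16 members had a called positive slope on age in females, and 7 had one with the genes detected in the model. Outside it the counts were 30 and 23. With body length, edgeR called 0 members of the set in either fit and DESeq2 also 0, and an unadjusted p under 0.05 was found for 1 in the joint fit and 0 at a fixed age.

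The set of 6 contained ENSORLG00000002651 and ENSORLG00000016288, which had a rho of 0.75 with each other. All 6 had a called positive slope on age in females, with and without the genes detected in the model. Of the 6, 4 were called higher in the females of 131 to 179 dpf against those of 37 to 39 dpf. With length at a fixed age, 5 were called higher. Over all genes tested, edgeR called 14.5% higher with age alone, 0.453% between these female groups and 2.99% with length at a fixed age. The 6 were linked over the same females, so their calls are not 6 separate results. The median of its members' group medians was 6.69 in females of 131 to 179 dpf and 4.72 in females of 37 to 39 dpf on the log2(CPM + 1) scale, and 6.05 in males of 134 dpf and 4.14 in males of 38 dpf.

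The set of 3 had rho of 0.94 to 0.97 within it, the closest of all. Its members had medians of 9.05 to 11.5 CPM over all fish, and whether their reads can be told apart from each other cannot be read from counts. All 3 had a called positive slope on age in females. In contrast to the set of 6, their typical level first went down, with 3.32 at 32 to 35 dpf and 2.32 at 53 to 59 dpf, and then was 4.98 at 131 to 179 dpf.

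**Figure D5:**
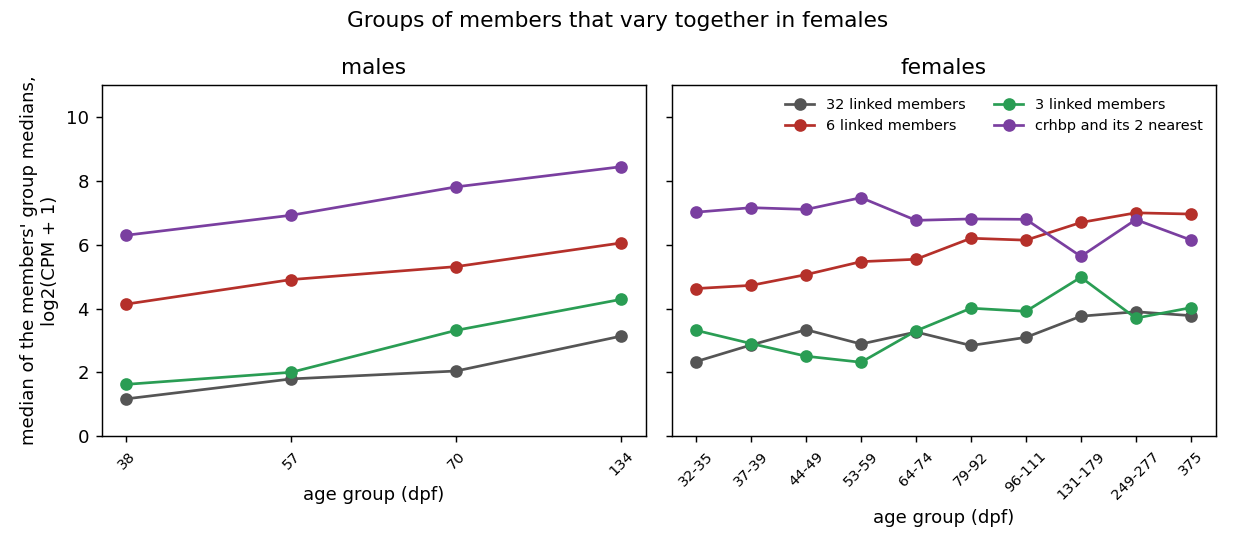
Median of the members' group medians, log2(CPM + 1), by age group in males (left) and females (right) for the sets of 32, 6 and 3 linked members and for crhbp with its 2 nearest members. All lines go up in males by the choice of members, and in females the line of crhbp and its 2 nearest members is lower at 131 to 179 dpf (5.63) than at 37 to 39 dpf (7.16). That line has the values of ENSORLG00000005962, the middle one of the 3 in each group.

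The gene crhbp belonged to none of these sets. Its 2 nearest members were ENSORLG00000026115 (rho 0.74, Pearson's r 0.81) and ENSORLG00000005962 (rho 0.65, Pearson's r 0.73), and the next was at 0.14. For these 3 the median of group medians is in each group the value of the middle one, ENSORLG00000005962. It was 8.44 in males of 134 dpf and 6.29 in males of 38 dpf. In females it was 5.63 at 131 to 179 dpf and 7.16 at 37 to 39 dpf. At the same female ages crhbp had medians of 7.21 and 8.20, and ENSORLG00000026115 of 5.01 and 5.63. The rho of these 3 with the number of genes detected lay between -0.18 and -0.11. The nearest member to spaca4l had a rho of 0.41.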

How the data were processed

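Single medaka pituitaries were sequenced after cDNA amplification with the Smart-SEQ HT kit, and the authors deposited raw counts per gene. Per the submitters' notes on processing, STAR 2.7.6a, SAMtools 1.10 and HTSeq 0.11.2 were used. Overlapping genes cannot be told apart, since the strand setting is not given in the sources used here. Totals per library were 2424546 to 9348785 counts, with a median of 6493890.

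CPM were computed from the counts of all 24364 entries. Tests used edgeR 4.0.16 in R 4.3.3 (TMM, filterByExpr, robust quasi-likelihood, Benjamini-Hochberg over all genes tested, threshold 0.05 on adjusted p), and DESeq2 1.42.0 was the other tool tried. The SE was derived from the F statistic. Summaries used Python 3.11.15, pandas 2.3.3, numpy 2.4.6, networkx 3.6.1 and matplotlib 3.10.9. The fits were tested on simulated counts.

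The members, lists and tests were chosen with earlier results of these data known. Named genes are the members the study names, the unnamed member with the largest male difference or the smallest p higher or lower with age in females, and 2 chosen after their values were seen. The reference table paired no identifier with a symbol, so lists by symbol could not be used. Labels share no replicate numbers. They give 134 dpf for all 4 oldest males, while the study's text gives other ages for 3 of them, and the labels were used.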

Additional observations from a re-analysis of the deposited data

Results flagged for a closer look

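In groups of 4 to 10 fish, a fish was listed when its gap to the nearest other fish took up more of the group's range than Dixon's 95% limit allows. The limit lists about 1 in 20 by chance only for independent values with a normal distribution. CPM can be skewed and some fish recur below, so that rate need not hold here. The rule was applied to 6 members and the median over all members in 77 combinations with a group, and 15 were listed. For spaca4l these were male medaka125 of 38 dpf (63.2 CPM, the others 0.288 to 5.88), male medaka135 of 70 dpf (297 CPM, the others 6.42 to 14.3), female medaka111 of 32 to 35 dpf (48.6 CPM, the others 0.282 to 6.74), female medaka60 of 44 to 49 dpf (114.9 CPM, the others 8.90 to 53.6) and female medaka7 of 79 to 92 dpf (254 CPM, the others 8.07 to 89.1). For crhbp it was female medaka76 of 53 to 59 dpf (624 CPM, the others 131 to 338), which was also listed for ENSORLG00000026115 (99.5 CPM, the others 25.3 to 57.2).

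For ENSORLG00000026115, male medaka128 of 38 dpf (102.5 CPM, the others 23.7 to 33.6) and male medaka135 of 70 dpf (18.6 CPM, the others 95.9 to 104) were listed too. For ENSORLG00000005962 these were male medaka131 of 57 dpf (217 CPM, the others 107.9 to 121.7), female medaka108 of 32 to 35 dpf (763 CPM, the others 97.7 to 132.3) and female medaka82 of 64 to 74 dpf (320 CPM, the others 52.2 to 181). For ENSORLG00000002651 these were male medaka126 of 38 dpf (7.77 CPM, the others 1.67 to 2.64) and female medaka29 of 53 to 59 dpf (14.1 CPM, the others 2.92 to 8.51), and for ENSORLG00000016288 female medaka54 of 64 to 74 dpf (367 CPM, the others 16.5 to 184).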

How the results depend on the processing

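Leaving out 1 male at a time, 39 to 79 of the 100 members were chosen again. Without the 3 males of low hormone share, an alternative chosen after seeing the data, 49 were, with the mean in place of the median 45, and with the other pseudocounts and TMM scaling 67 to 95. The 46 members called higher with age in females became 19 in the 37 to 179 dpf females, 23 with the RNA integrity number and 30 with detected genes as covariates. The share of all genes called higher also fell in each of these fits, as given above. The drop can therefore not be read as particular to the members. The 2 called lower became 0, 0 and 1, and 1 with DESeq2's size factors or without the filter on low counts. In the joint fit, the 1 member called with age became 0 in the 37 to 179 dpf females, and the 2 called lower with length became 4 with detected genes as a covariate. Between females of 131 to 179 and 37 to 39 dpf, the 12 members higher became 20 with DESeq2. They became 5 with detected genes as a covariate (added after seeing the data). Calls over all genes moved the same way in these fits. When a female was left out, the 12 became 5 to 24 and the 2 lower became 1 to 2. The fit without female medaka119, with 1 lower, is among these refits. Calls over all genes in them are not given here. The 11 members higher with length at a fixed age, beside 679 of all genes, became 7 without female medaka7. They became 5 without females of under 12% hormone counts, where 34 of all genes were called higher. The cause of these changes was not tested, and the smaller sets also hold fewer fish.

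Among single genes, directions within the alternatives of each fit turned only where no change was called. For spaca4l the age slope was 0.27 in the 37 to 179 dpf females and 0.056 with detected genes as a covariate. For ENSORLG00000005962 the slope on length at a fixed age was -0.0215 without female medaka7 and -0.0335 without the females of low hormone share, and for ENSORLG00000026115 it was 0.0096 in females of 64 to 111 dpf. Between fits, the called age slope of crhbp turned from -0.27 with age alone to 0.19 with length in the model, where it was not called. No paired analysis was possible because the labels give no replicate numbers shared between groups. At this depth members under 10 CPM rest on few counts in shallow libraries. Age rises with length, and the age slopes of the 6 genes described had larger errors when fitted together with length.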
